A study of Sus scrofa with 48 samples.

Results

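The response of the subcutaneous adipose tissue (SCAT) transcriptome to diet was examined within the inefficient line of pigs only. Members were the arrays whose sample titles carried the high residual feed intake (RFI) line with either diet, which gave 24 of the 48 arrays of the series. RFI is the feed intake left over after the needs of growth and maintenance are accounted for, so that high RFI pigs need more feed for the same gain. All pigs were growing Large White barrows fed ad libitum and labelled as 132 days old. In the HF high RFI group (12 pigs), the diet was rich in fat and fiber, with plant oils and wheat straw in place of starch. In the LF high RFI group (12 pigs), the diet was rich in starch and low in fat and fiber. The low RFI line, with 12 pigs on each diet, entered the same model and is given here only where the response of the high RFI pigs is set beside it. Fat, fiber and starch changed together between the diets, so that their effects cannot be told apart, and each pig contributed 1 sample of whole tissue to 1 single-colour array.

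White adipocytes store energy as triglycerides. In the pig, adipose tissue is the main site of fatty acid synthesis from glucose: glycolysis and the pyruvate dehydrogenase complex deliver acetyl units, citrate carries them into the cytosol, and acetyl-CoA carboxylase and fatty acid synthase build fatty acids with NADPH from malic enzyme and the pentose phosphate pathway. Dietary starch is known to sustain this route and dietary fat to restrain it. The tissue also contains preadipocytes, vessels, nerves and immune cells, and can carry muscle or skin fragments from dissection.

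The tissue label was checked against markers fixed for this purpose. Of 21 adipocyte markers, 19 were measured and 17 passed the background flag on every one of the 24 arrays. The log2 level of the fatty acid binding protein FABP4 lay between 9.49 and 9.92 in HF pigs and between 9.55 and 10.04 in LF pigs, where 0 is the median probe of the array. The arrays detected 73.1% ± 4.79 of the probes in HF pigs (SD, n = 12) and 75.4% ± 1.82 in LF pigs (permutation test, two-sided, p = 0.125). HF replicates 2, 4 and 6 detected less than 70% of the probes, with 62.2% as the lowest value. Each of the 6 slides carried 2 arrays of each high RFI group and each of the 2 scan dates 6 of each, but only 6 positions on the slides held arrays of both high RFI groups. Of the other positions, 1 held 3 HF arrays and no LF array, and 1 held 4 LF arrays and no HF array, so that position and diet were partly confounded. Precision was limited by the number of arrays.

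More genes were lower than higher under the HF diet. Of 11103 genes tested, 165 were called between diets in high RFI pigs (1.49%), in limma with a fold change of more than 1.1, a raw p below 0.01 and an adjusted p below 0.08. Of these, 137 genes were under-expressed (1.23%) and 28 were over-expressed (0.252%) by the HF diet. Adjusted p-values went down to 0.0036, and 1526 genes had a raw p under 0.05. In whole tissue, fewer cells of a type and less RNA per cell cannot be told apart, here or in any result that follows. Over all genes the median log2 fold change was -0.04, and 62.9% of the genes were lower under the HF diet. The share of rises among the calls moved with the scaling: quantile normalization gave 49 higher and 90 lower genes, and scaling to the 75th percentile gave 36 higher and 85 lower. Changes were small, with a median fold of 1.27 among the genes that fell and 1.33 among those that rose, and 5 falls and 2 rises passed 2-fold. Of the 165 genes, 160 were well above background on all 24 arrays. All 165 had the same direction within both scan dates, but they had been called on the same arrays, so that this is no independent check. With array position as a block 28 genes were called (7 higher, 21 lower), 26 of the 165 among them. Within the first scan date 95 genes were called, and within the second 0 in limma, where 662 genes had a raw p under 0.05. With slide as a block, by contrast, 414 genes were called, all 165 included, so that a gene without a call here may have one there. Only WDR86, among all 11103 genes, had no overlap between the 12 HF and the 12 LF pigs.

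Among the 12 largest falls, 1 transcription factor and 2 secreted lipocalins led. SOX9, the transcription factor that directs cartilage formation, had log2 levels of -4.17 (lowest), -2.69 (median) and -0.18 (highest) in HF pigs, and of -2.52, -0.71 and 0.56 in LF pigs. Below every LF pig lay 6 of the 12 HF pigs, while HF replicate 12 reached the LF levels and LF replicate 5 the HF levels. SOX9 fell 3.48-fold (log2 -1.80, SE 0.35, limma adjusted p = 0.00756). PTGDS makes prostaglandin D2. Its log2 levels were 1.49, 2.93 and 4.20 in HF pigs and 2.99, 4.15 and 5.41 in LF pigs. The groups overlapped, with 7 HF pigs below every LF pig, and PTGDS fell 2.54-fold (log2 -1.34, SE 0.28, adjusted p = 0.0134). LCN2, a secreted protein that binds bacterial iron carriers, ranged over -1.03, 0.07 and 1.39 in HF pigs and 0.13, 1.06 and 3.01 in LF pigs. Lower than every LF pig were 6 HF pigs, and the fall was 2.45-fold (log2 -1.29, SE 0.34, adjusted p = 0.0546). LCN2 was not called when any of HF replicates 7, 9 and 10 or LF replicates 1, 2 and 6 was left out (log2 -1.27 to -1.15), while SOX9 and PTGDS were called in all 24 fits that left out 1 high RFI pig. PTGDS and LCN2 were each measured by 1 sequence only, which the array carries on more than 1 probe (2 for PTGDS, at -1.34 and -1.31, and 3 for LCN2, at -1.32 to -1.29). Copies of a probe repeat the hybridization but are no second measurement of another stretch of the transcript. The 60-base probes are shown 5′ to 3′ as the scanner files list them, because both falls rest on a single stretch of each transcript.
PTGDS: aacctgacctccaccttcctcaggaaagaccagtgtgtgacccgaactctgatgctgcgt
LCN2: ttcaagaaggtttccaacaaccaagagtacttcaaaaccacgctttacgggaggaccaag

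The 12 largest falls also held 2 transporters and a sugar kinase, which are placed side by side for their roles and not by rank. SLC2A5, the fructose transporter GLUT5, had log2 levels of -3.59, -1.94 and -0.86 in HF pigs against -1.79, -0.89 and 0.28 in LF pigs. The ranges overlapped, 7 HF pigs lay below every LF pig, and the fall was 2.14-fold (log2 -1.1, SE 0.24, adjusted p = 0.0208). SLC16A13, a monocarboxylate transporter, ranged over 1.28, 2.10 and 2.81 in HF pigs and 2.29, 2.77 and 4.16 in LF pigs. In all, 9 of the 12 HF pigs were below every LF pig, and SLC16A13 fell 1.83-fold (log2 -0.87, SE 0.18, adjusted p = 0.0107), while its dimmer probe gave -0.39. HK2, the insulin-regulated hexokinase that traps glucose in the cell, had levels of 2.78, 4.72 and 5.23 in HF pigs and 4.80, 5.16 and 6.14 in LF pigs. HF replicate 7 was far below the rest, 8 HF pigs lay below every LF pig, and HK2 fell 1.71-fold (log2 -0.78, SE 0.20, adjusted p = 0.0427). The call of HK2 was lost without HF replicate 7 (-0.62), LF replicate 3 (-0.70) or LF replicate 6 (-0.73).

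WDR86, a protein with WD repeats whose role is little known, showed the cleanest separation. Its log2 levels were -1.86, -1.35 and -0.98 in HF pigs and -0.87, -0.57 and 0.05 in LF pigs, so that the highest HF pig stayed below the lowest LF pig. The fall was 1.78-fold (log2 -0.83, SE 0.14, adjusted p = 0.0036). Only 1 sequence measured it. The secreted metalloprotease ADAMTS18 fell, with a log2 fold change of -0.99 (SE 0.22, adjusted p = 0.0208), with 10 HF pigs below every LF pig and HF replicate 12 at 0.68, within the LF range of -0.25 to 1.03.

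A further 3 of the 12 were less secure. MTMR7, a phosphoinositide phosphatase, fell by 1.07 (adjusted p = 0.079) and was called in 9 of the 24 fits that left out 1 pig, with log2 -1.23 to -0.90 over them. Its other sequences gave -0.97 and -0.05, so that its probes disagreed. PRSS35, a secreted relative of serine proteases, was well above background on only 4 of the 12 HF arrays against 12 of 12 LF arrays. It passed the filter through the LF group, where it is high, so that its fitted value of -0.98 describes these arrays and supports nothing further. CRYAB, a small heat shock protein abundant in muscle, fell by 0.88 (SE 0.23, adjusted p = 0.049) from an LF median of 4.71 to an HF median of 3.87, and was called in 17 of the 24 fits. Its call was lost without HF replicate 3, 7 or 11 or LF replicate 2, 3, 4 or 7 (-0.85 to -0.79). Skeletal muscle markers were lower beside it: 18 of 19 measured markers were lower under HF, against 62.9% of all genes. None was called at its brightest probe, where 1.49% of all genes were called, while the marker PYGM was called at another probe (-0.83). Their median was -0.31 (-0.40 to -0.11 when 1 pig was left out), with -0.16 within the first scan date and -0.51 within the second. Well above background on all 24 arrays were 10 of the 19, while 2 were so on 12 arrays or fewer. The summed level of the markers spanned 34.7 to 58.0 in HF pigs and 39.2 to 109.9 in LF pigs. The part of the muscle markers in the fall of CRYAB was not tested.

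**Figure D1:**
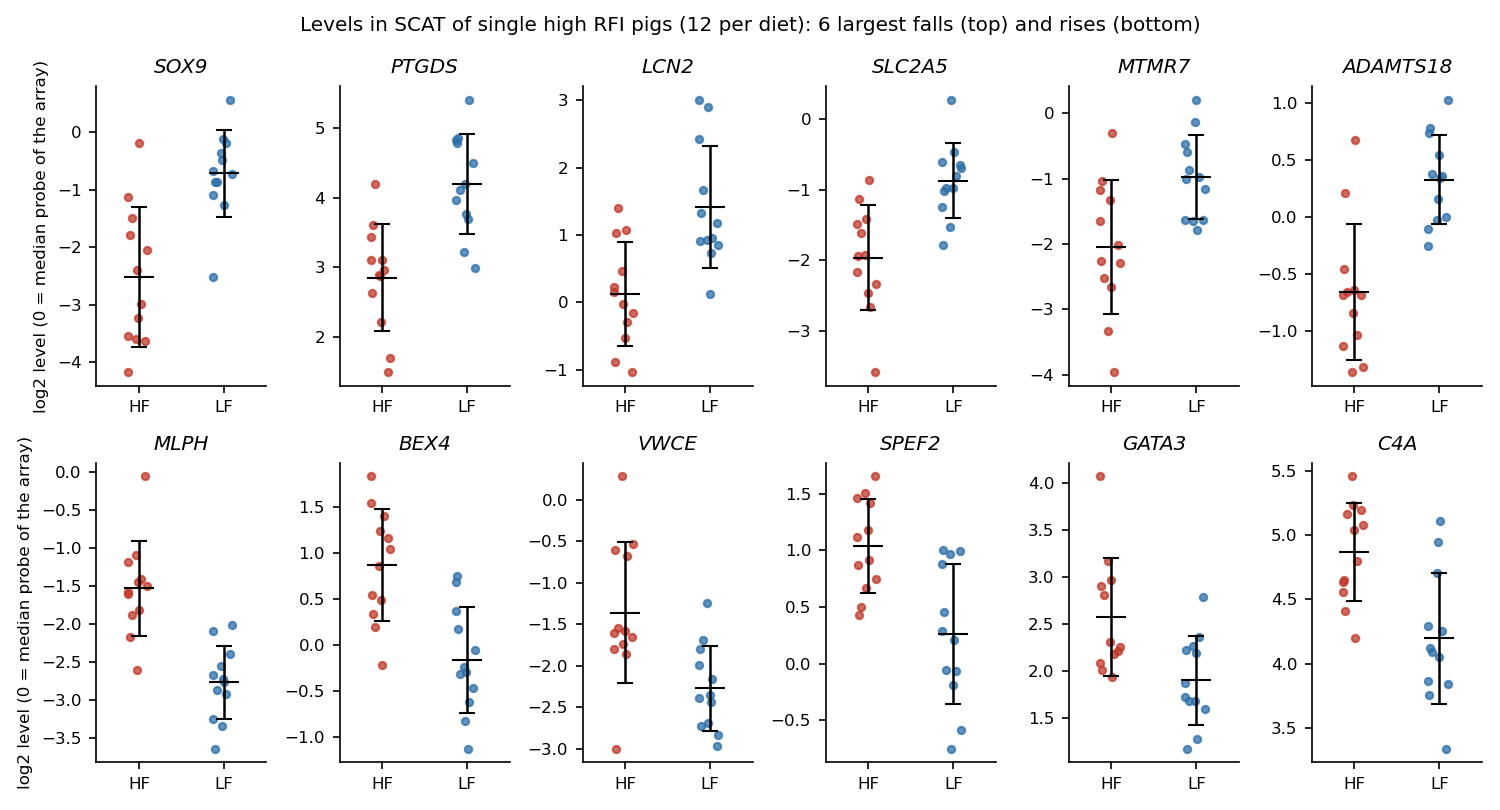
Each panel plots the log2 level of 1 gene (0 is the median probe of the array) in single high RFI pigs, red for HF and blue for LF, with the mean and SD (n = 12 per group) in black, and each panel has its own axis. The upper row holds the 6 largest falls and the lower row the 6 largest rises, and all 12 genes overlap between groups.

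The rises were fewer. MLPH, melanophilin, which links pigment granules to the actin motor, had log2 levels of -2.61, -1.54 and -0.06 in HF pigs and -3.65, -2.75 and -2.02 in LF pigs. Above every LF pig lay 10 of the 12 HF pigs, with HF replicate 9 the highest. MLPH rose 2.36-fold (log2 1.24, SE 0.28, adjusted p = 0.0248) and was called in all 24 fits that left out 1 pig. PCK2, the mitochondrial phosphoenolpyruvate carboxykinase, which supplies carbon for glyceroneogenesis, ranged over 1.32, 1.74 and 2.07 in HF pigs and 0.62, 1.14 and 1.97 in LF pigs. Its rise was 1.47-fold (log2 0.56, SE 0.12, adjusted p = 0.0165), with only 2 HF pigs above the highest LF pig, LF replicate 5. ABCC5, an efflux pump for cyclic nucleotides, rose by a log2 fold change of 0.57 (SE 0.13, adjusted p = 0.0232), and its other sequences gave 0.17 and 0.19. All 12 HF pigs were above the LF median, and 9 were above every LF pig. GALNT7, which starts mucin-type sugar chains, rose by 0.47 (SE 0.11, adjusted p = 0.0208), and TMCC1, a protein of the endoplasmic reticulum membrane, by 0.46 (SE 0.10, adjusted p = 0.0134). Each of these 2 had 8 HF pigs above every LF pig. MLPH, PCK2, ABCC5, GALNT7 and TMCC1 were called in all 24 fits that left out 1 pig.

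GATA3, a transcription factor of T cells and of undifferentiated preadipocytes, had log2 levels of 1.93, 2.28 and 4.08 in HF pigs and 1.17, 1.79 and 2.79 in LF pigs. HF replicate 5 stood far above the others, and 5 HF pigs were above every LF pig. GATA3 rose 1.60-fold (log2 0.68, SE 0.19, adjusted p = 0.0703). Without HF replicate 5 the log2 fold change was 0.54 with an adjusted p of 0.121, and GATA3 was called in 12 of the 24 fits. The same animal had a summed level of 105.7 for 9 measured skin epithelial markers, against 9.32 or less in the other HF pigs and 8.88 or less in LF pigs. The part of these markers in the rise of GATA3 was not tested beyond leaving out that pig.

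The remaining 6 of the 12 largest rises were called in 9 to 18 of the 24 fits that left out 1 pig. BEX4, a small adaptor protein of the brain-expressed family, rose by 1.04 (SE 0.27, adjusted p = 0.05) and was called in 18 of the 24 fits, with losses without HF replicate 1, 4, 5 or 9 or LF replicate 4 or 6 (0.95 to 1.01). Its second sequence gave -0.03, so that the probes of BEX4 disagreed. VWCE, a secreted protein with von Willebrand factor C domains, rose by 0.91 (adjusted p = 0.0546, 15 of 24 fits), although HF replicate 8 had the lowest level of all 24 pigs, -3.00. SPEF2, a protein of cilia and sperm tails, rose by 0.78 (adjusted p = 0.047, 17 of 24 fits), and the 2 other sequences that were well above background on all 24 arrays gave 0.17 and 0.55. The complement component C4A rose by 0.67 (adjusted p = 0.0693, 9 of 24 fits). The closely similar C4B may share its probes, so the identity of this transcript is uncertain. IGFBP3, the main carrier of insulin-like growth factors in blood, rose by 0.58 (adjusted p = 0.0618, 14 of 24 fits), and its second sequence gave 0.60. C5ORF13, named here as on the array, rose by 0.60 (adjusted p = 0.075, 10 of 24 fits).

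Genes of glycolysis and of the pyruvate dehydrogenase complex were mostly lower, with few calls, while insulin signalling genes went both ways. Of all genes, 62.9% were lower. Of 25 glycolysis and glucose transport genes measured, 22 were lower and 3 higher under HF, the median was -0.22 against -0.04 for all genes, and HK2 was the 1 gene called (1.49% of all genes were called). Of 13 genes of the pyruvate dehydrogenase complex and its regulators, 10 were lower, with a median of -0.16. PDK1, a kinase that switches this complex off, fell 1.27-fold (log2 -0.35, SE 0.10, adjusted p = 0.0749), from an LF median of 2.43 to an HF median of 2.10. It was called in 8 of the 24 fits that left out 1 pig, and its other sequences gave -0.33 to 0.14. Subunits of the complex were not called: PDHA1 had -0.23 (adjusted p = 0.333) and DLAT -0.43 (adjusted p = 0.228). PDK4, chosen after its values were seen, had 0.80 (adjusted p = 0.25), the opposite sign to PDK1. Of 23 glycogen genes, EPM2A, the phosphatase laforin that acts on glycogen, fell by 0.40 (adjusted p = 0.0732) and was called in 7 of the 24 fits. The list median was -0.08. GYS2, a glycogen synthase, had -0.02 (adjusted p = 0.952) at its brightest probe and -1.41 to -0.80 at 3 dimmer sequences, which were well above background on 11 to 20 of the 24 arrays and were not called. Of 20 insulin signalling genes, RHOQ, a small GTPase that helps bring glucose transporters to the cell surface, fell 1.34-fold (log2 -0.43, SE 0.10, adjusted p = 0.0319) and was called in all 24 fits. Its levels were 5.42, 5.88 and 6.36 in HF pigs against 5.91, 6.33 and 6.63 in LF pigs, with 7 HF pigs below every LF pig.

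No gene of fatty acid synthesis passed the test at its brightest probe, although 14 of 15 measured were lower. Over all genes, 62.9% were lower and 1.49% were called. The list median was -0.38, with values from -0.76 to 0.08, and 6 genes had a raw p under 0.05. The median stayed below 0 under all alternatives and was -0.60 within the first scan date and -0.20 within the second. ACACA, the acetyl-CoA carboxylase that commits carbon to fatty acids, had log2 levels of 5.41, 6.23 and 7.21 in HF pigs and 5.47, 7.19 and 7.95 in LF pigs. The groups overlapped, with 2 HF pigs below every LF pig and 5 LF pigs above every HF pig, and the difference was -0.76 (SE 0.29, adjusted p = 0.193). At the probe level, where 1.66% of all probes were called, a dimmer ACACA sequence was called at -0.71 (SE 0.15, adjusted p = 0.016). ACLY, which releases acetyl-CoA from citrate, had -0.63 (SE 0.24, adjusted p = 0.214). FASN, fatty acid synthase, was chosen after its values were seen and had -0.13 (SE 0.10, adjusted p = 0.599) at its brightest probe. ME1, the malic enzyme that supplies NADPH, missed the threshold by little: its levels were 5.04, 5.98 and 7.11 in HF pigs and 5.19, 7.25 and 7.75 in LF pigs, with -0.91 (SE 0.27, adjusted p = 0.09) and -1.21 at its second sequence. The 10 genes of NADPH supply had a median of -0.16 and no call, but 1 call with slide as a block.

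Storage, use and uptake of lipids were less uniform. Of all genes, 62.9% were lower, 1.49% were called and 0.252% were called higher. Of 15 triglyceride synthesis genes, 8 were lower and 7 higher, the median was -0.01, and PCK2 was the 1 called gene. PCK1, its cytosolic counterpart, was chosen after its values were seen and had 1.19 (SE 0.51, adjusted p = 0.274). Lists of lipolysis and lipid droplets (16 genes, median -0.03), fatty acid uptake (16 genes, median -0.08) and fatty acid oxidation (28 genes, median -0.05) had no call. Of 19 genes of cholesterol synthesis and uptake, 16 were lower and 1 was called, with a median of -0.21. LEP, the satiety hormone of adipocytes, had levels of 2.21, 3.79 and 4.11 in HF pigs and 3.53, 4.25 and 4.96 in LF pigs. Its difference of -0.69 (SE 0.23, adjusted p = 0.13) was not called at the brightest probe, whereas a dimmer probe was called at -0.70 (SE 0.20, adjusted p = 0.0673).

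Of 15 regulators that the study had followed by qPCR, none was called, against 1 with slide as a block. In limma 5 of the 15 had a raw p under 0.05, against 1526 of all 11103 genes. Without a call, RXRA had -0.21, RXRG 0.66 and PPP1R1A 0.42. The nearest was PPARD, a nuclear receptor of fatty acid use, with levels of 1.84, 3.09 and 3.83 in HF pigs and 2.96, 3.55 and 4.68 in LF pigs, and a difference of -0.62 (SE 0.19, adjusted p = 0.0998). Its other sequences gave -0.31 to 0.03, so that the probes of PPARD disagreed. MLXIPL, the carbohydrate-responsive factor, had -0.38 (adjusted p = 0.417), SREBF1, the insulin-responsive factor of lipogenesis, -0.14 (adjusted p = 0.694), and PPARG, the master regulator of adipocytes, 0.02 (SE 0.08, adjusted p = 0.95). The other SREBF1 probes gave -0.32 to -0.19, and none was called. PPARA had 0.73 (adjusted p = 0.274) at its brightest probe but -0.46 and -0.11 at 2 other sequences, so that its probes disagreed in direction. Of all genes, 62.9% were lower and 1.23% were called lower. Of 18 measured genes that the study discusses, picked by it on these samples and so no independent evidence, 16 were lower, the median was -0.29, and 3 fell, HK2 and PDK1 among them.

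Genes of protein turnover were mostly lower by small amounts, with few calls. Of all genes, 62.9% were lower and 1.23% were called lower. Of 32 ubiquitin-conjugating enzymes, 29 were lower, with a median of -0.10, and 2 were called. UBE2G1 had levels of 0.98, 1.26 and 1.54 in HF pigs and 1.4, 1.54 and 1.71 in LF pigs. Below every LF pig lay 9 HF pigs, and UBE2G1 fell 1.21-fold (log2 -0.28, SE 0.07, adjusted p = 0.0319). UBE2W, which attaches ubiquitin to protein N termini, fell by 0.32 (SE 0.08, adjusted p = 0.0403). Of 44 proteasome genes, 36 were lower, the median was -0.09, and PSMD7, a lid subunit, was the 1 called, at -0.18 (SE 0.05, adjusted p = 0.0791). PSMD7 was called in 6 of the 24 fits that left out 1 pig. A further list held protein catabolic genes that the study had chosen on these samples together with another fat depot, so that its direction is not independent evidence. Of its 31 measured members, 29 were lower, the median was -0.16, and 5 fell. The largest fall was that of FZR1, the activator of the anaphase-promoting complex, with levels of 1.1, 1.17 and 1.51 in HF pigs and 1.35, 1.75 and 1.96 in LF pigs. FZR1 fell 1.35-fold (log2 -0.43, SE 0.08, adjusted p = 0.00756), with 8 HF pigs below every LF pig. UFM1, a ubiquitin-like modifier, fell by 0.26 (adjusted p = 0.0434), and the call was lost without HF replicate 7 or 9 or LF replicate 6 (-0.25 to -0.24). UBE2W lost its call without HF replicate 9 or LF replicate 4 (both -0.30).

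Mitochondrial genes were mostly lower by small amounts, where 62.9% of all genes were lower. Of 69 oxidative phosphorylation genes, 65 were lower and 4 higher, with a median of -0.15 and values from -0.49 to 0.07. Only CYCS, cytochrome c, was called, a share near the 1.49% of all genes, with a 1.34-fold fall (log2 -0.43, SE 0.12, adjusted p = 0.0719), and 13 other sequences of it gave -0.84 to -0.09. CYCS was called in 7 of the 24 fits. The 15 citric acid cycle genes had a median of -0.16 and no call at their brightest probes, with SDHB, a subunit of succinate dehydrogenase, at -0.19 (adjusted p = 0.306). Both medians were below 0 under all alternatives run. Among the 30 antioxidant and detoxification genes, with a median of -0.10, TXNRD1 alone was called. This thioredoxin reductase fell 1.38-fold (log2 -0.47, SE 0.11, adjusted p = 0.0341), with 9 HF pigs below every LF pig.

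Lists of extracellular matrix and cell cycle genes had medians above 0 and no call at their brightest probes. Over all genes, 62.9% were lower, 1.49% were called and 0.252% were called higher. The 36 extracellular matrix genes had a median of 0.11 and 27 of them were higher, with COL6A2, a chain of type VI collagen, at 0.40 (adjusted p = 0.202). The 27 mitotic cell cycle genes had a median of 0.18, which was near 0 within the first scan date and 0.32 within the second, with MCM2, a replication licensing factor, at 0.44 (adjusted p = 0.356). Endoplasmic reticulum stress and degradation (32 genes, median -0.12), branched-chain amino acid catabolism (19 genes, -0.07), interferon response (29 genes, -0.06, with -0.29 in the first scan date and 0.10 in the second), adipokines and receptors (16 genes, -0.05), adrenergic control of lipolysis (21 genes, -0.06) and the circadian clock (17 genes, -0.06) had no call at their brightest probes either. With slide as a block, stress and degradation had 3 calls, and interferon response and adipokines 1 each. Their genes nearest to the threshold were ATF4, a factor of the stress response, at -0.26 (adjusted p = 0.0869), IRF7, an interferon regulator, at -0.54 (adjusted p = 0.0891), and NAMPT, which makes an NAD precursor, at -0.53 (adjusted p = 0.0892). Other probes of these genes were called: ATF4 at -0.29 (adjusted p = 0.0487), IRF7 at -0.43 (adjusted p = 0.0574) and NAMPT at -0.54 and -0.52 (adjusted p = 0.0606 and 0.055). Over all lists, 13 genes were called only at a probe other than the brightest. Among them were the adiponectin receptor ADIPOR2 at -0.30 and -0.28 and the collagen chain COL6A3 at 0.61. COL6A3 was chosen after its values were seen. Insulin signalling had a median of 0.01, with RHOQ as its call.

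**Figure D2:**
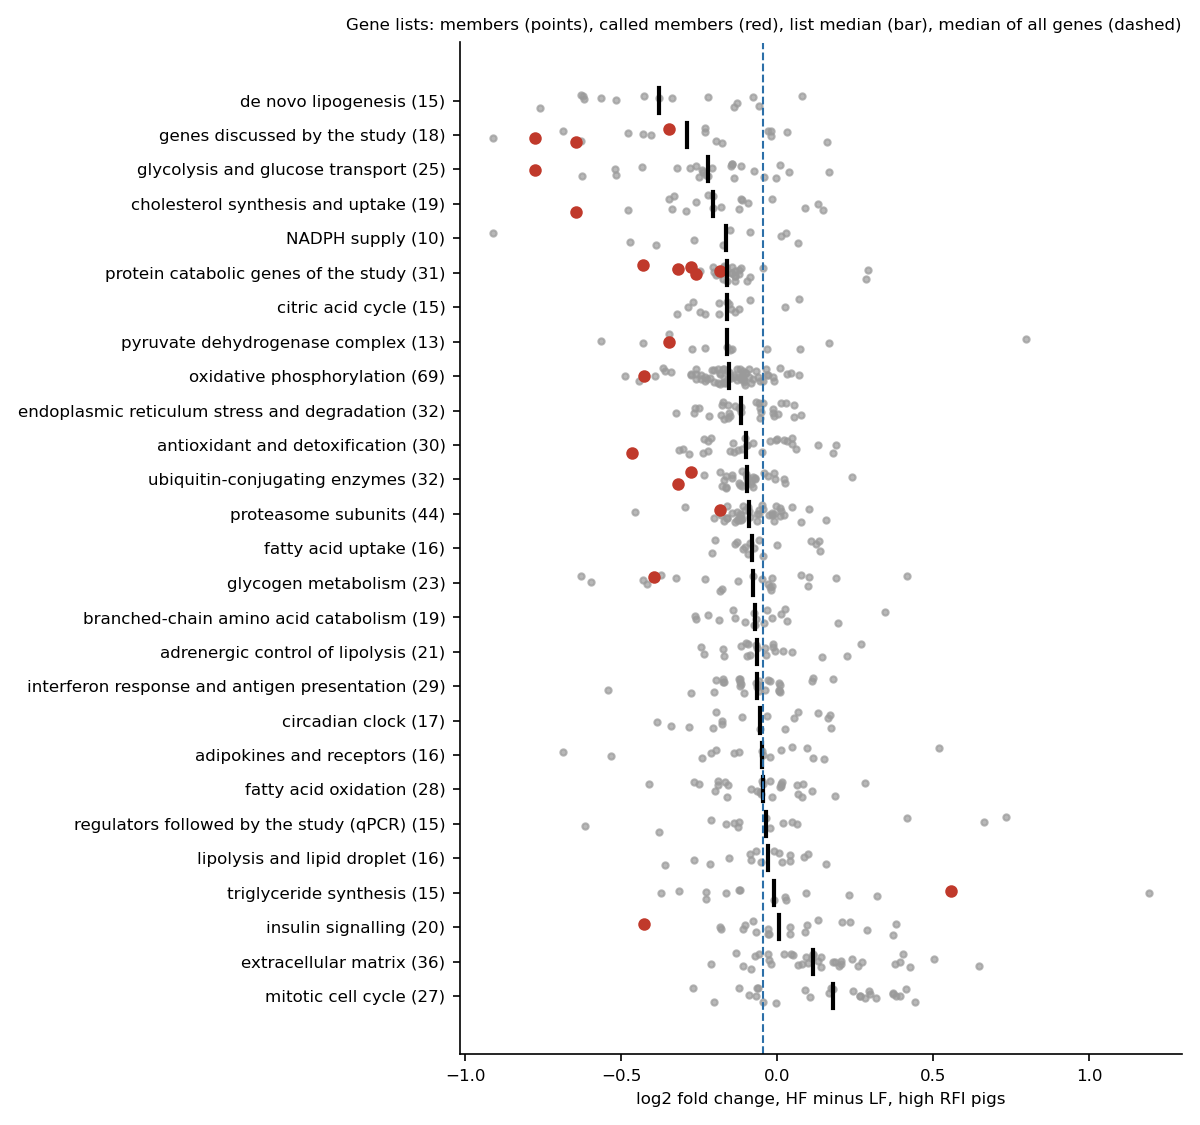
Each row is a gene list, with the number of measured members in parentheses, and the horizontal axis gives the log2 fold change (HF minus LF) in high RFI pigs. Grey points are members that were not called, red points are called members, black bars are list medians, and the dashed line is the median of all genes at -0.04. Lists of fatty acid synthesis (-0.38), glycolysis (-0.22) and cholesterol (-0.21) have the lowest medians among the pathways.

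None of the cell type markers was called at its brightest probe, and with slide as a block 1 skeletal muscle marker was. Over all genes, 1.49% were called and 62.9% were lower. At other probes, the adipocyte marker LEP was called at -0.70 and the skeletal muscle marker PYGM at -0.83. Adipocyte markers summed to 3366 to 4598 times the median probe in HF pigs and 3299 to 4668 in LF pigs, with a median log2 fold change of -0.12 over 19 markers. Macrophage markers (17 measured, median 0.06), fibroblast and preadipocyte markers (17, 0.12), blood endothelial markers (13, 0.04), T and NK cell markers (12, 0.08) and B cell markers (8, -0.01) covered overlapping ranges in both groups. Overlap was also seen for smooth muscle and pericyte markers (10, -0.07), blood cell markers (8, 0.01), nerve and Schwann cell markers (9, -0.01), mast cell and granulocyte markers (8, 0.22), lymphatic endothelial markers (5, 0.21) and brown and beige adipocyte markers (6, -0.07). Some medians changed sign between the first and the second scan date. Among them were those of lymphatic endothelial (-0.15 and 0.52), T and NK cell (0.20 and -0.06) and macrophage markers (-0.04 and 0.18). Single pigs stood apart in some lists. LF replicate 11 had the highest summed level of skeletal muscle markers (109.9), and LF replicate 10 followed with 74.2. LF replicate 10 was also the highest for smooth muscle, at 417.6. The 9 skin epithelial markers had the highest median of these lists, 0.60, with 8 of them higher under HF and 0.29 to 0.66 when 1 pig was left out. HF replicate 5 was the highest for skin epithelium, at 105.7, and KRT8, a keratin of simple epithelia, had 0.69 (adjusted p = 0.396).

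**Figure D3:**
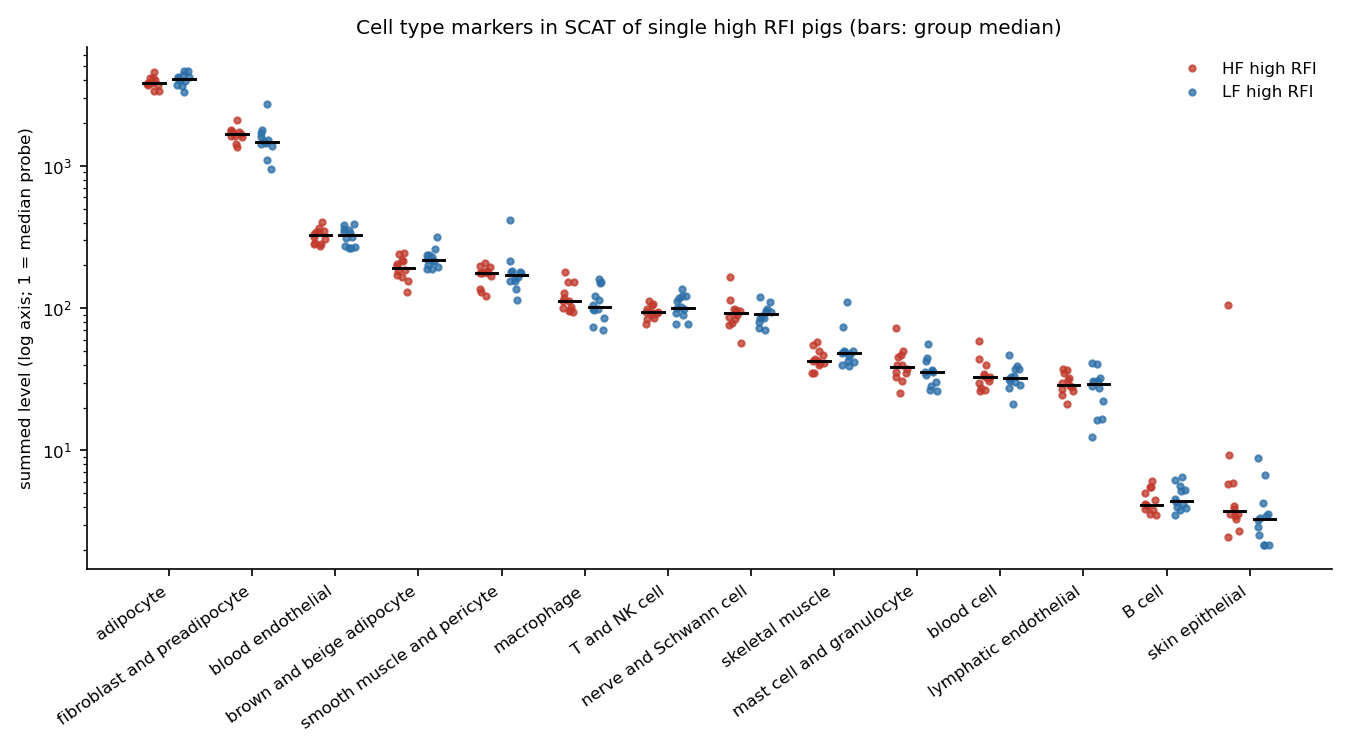
The summed level of each marker list (log axis, in multiples of the median probe) is plotted for single high RFI pigs, red for HF and blue for LF, with bars at the group medians. The groups overlap in every list, HF replicate 5 stands apart at 105.7 for skin epithelial markers, and LF replicate 11 is highest at 109.9 for skeletal muscle markers.

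The same contrast in the low RFI line was used to ask whether the response differed between lines. With other pigs on both diets, 273 of 11103 genes were called there (2.46%), 70 higher (0.63%) and 203 lower (1.83%). That split was 68 and 94 with quantile normalization and 89 and 102 with scaling to the 75th percentile. Of the 165 genes called in high RFI pigs, 162 had the same direction in low RFI pigs (98.2%), against 75.6% of all genes. Called in both lines were 73 genes, which is 44.2% of the calls in high RFI pigs and 26.7% of those in low RFI pigs. Over the 165 genes the median size was 0.36 in high RFI pigs and 0.26 in low RFI pigs, but the genes had been chosen for their change in high RFI pigs. No gene and no probe was called for the interaction of diet and line in limma (0% of 11103 genes and 0% of 44356 probes). Raw p under 0.05 was found for 99 of the genes and 462 of the probes, a smaller share of each than 0.05. These counts are no sign of an interaction, and the lack of calls does not show equal responses. Of the 165 genes, 9 were among the 99. The interaction was also 0 for probes under the 17 alternatives that could give one, the analysis of variance included.

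The genes with the smallest interaction p did not pass the correction either. IFT140, a protein of cilia, had -0.17 in high RFI pigs and 0.24 in low RFI pigs (interaction -0.41, p = 0.000599, adjusted p = 1). SLC48A1, a heme transporter, fell 1.55-fold in high RFI pigs (log2 -0.63, SE 0.14, adjusted p = 0.0208), with levels of 1.96, 2.28 and 2.80 under HF and 2.37, 3.04 and 3.34 under LF. It had 0.05 (SE 0.14) in low RFI pigs (interaction -0.68, p = 0.00133, adjusted p = 1). GATA3 had 0.68 in high RFI pigs and -0.21 in low RFI pigs (interaction 0.89, SE 0.27, p = 0.0018, adjusted p = 1). SHQ1, which takes part in ribonucleoprotein assembly, was chosen after its values were seen and was the third called gene with the opposite direction in low RFI pigs. By contrast, SLC2A5 had -1.1 and -1.09, PTGDS -1.34 and -1.24, and HK2 -0.78 and -0.82 in the high and the low RFI line.

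**Figure D4:**
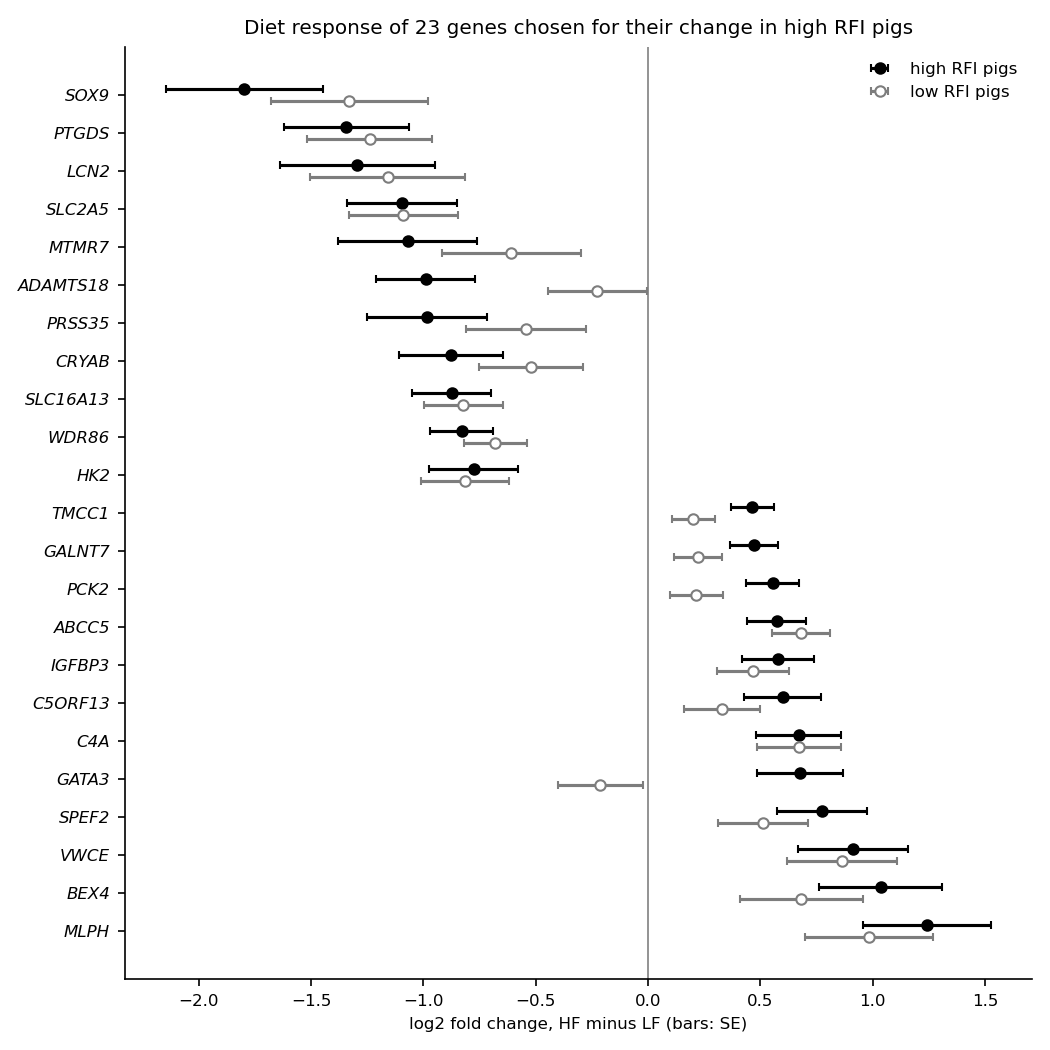
The log2 fold change (HF minus LF, bars are SE) is plotted for 11 of the 12 largest falls and the 12 largest rises of the high RFI pigs (filled) beside the same genes in low RFI pigs (open). The genes were chosen on the filled values, 22 of the 23 have the same sign in both lines, and GATA3 is the exception at 0.68 and -0.21.

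At the probe level, 737 of 44356 probes were called in high RFI pigs (1.66%), 295 higher (0.665%) and 442 lower (0.996%), and 6170 had a raw p under 0.05. Quantile normalization gave 378 higher and 372 lower probes, and scaling to the 75th percentile gave 416 and 331. Of the 737, 333 had a gene symbol and 404 had none. Among the probes without a symbol, 240 rose and 164 fell, so that falls outnumbered rises among the named probes but not among these. The largest changes without a symbol were A_72_P338853, at 1.48 (adjusted p = 0.0133), and A_72_P369663, at -1.76 (adjusted p = 0.0456). For 105 of the 165 called genes the array held another sequence, and for 101 of them (96.2%) all other sequences had the same direction, against 69.4% of 5256 genes with several sequences. At least 1 other sequence was called for 46 of the 105, and none had the same direction for 2 genes. The other 60 genes rested on 1 sequence.

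The number of calls depended on single pigs and on batches. All 165 genes kept their direction under every alternative that measured them. Each alternative refitted arrays on which these genes had been called, so that this is no independent check of direction. Without HF replicates 2, 4 and 6, 78 genes were called. In fits without 1 pig, the count was lowest at 78 (without HF replicate 9) and highest at 331 (without LF replicate 12), and 59 of the 165 genes were called in all 24.

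**Figure D5:**
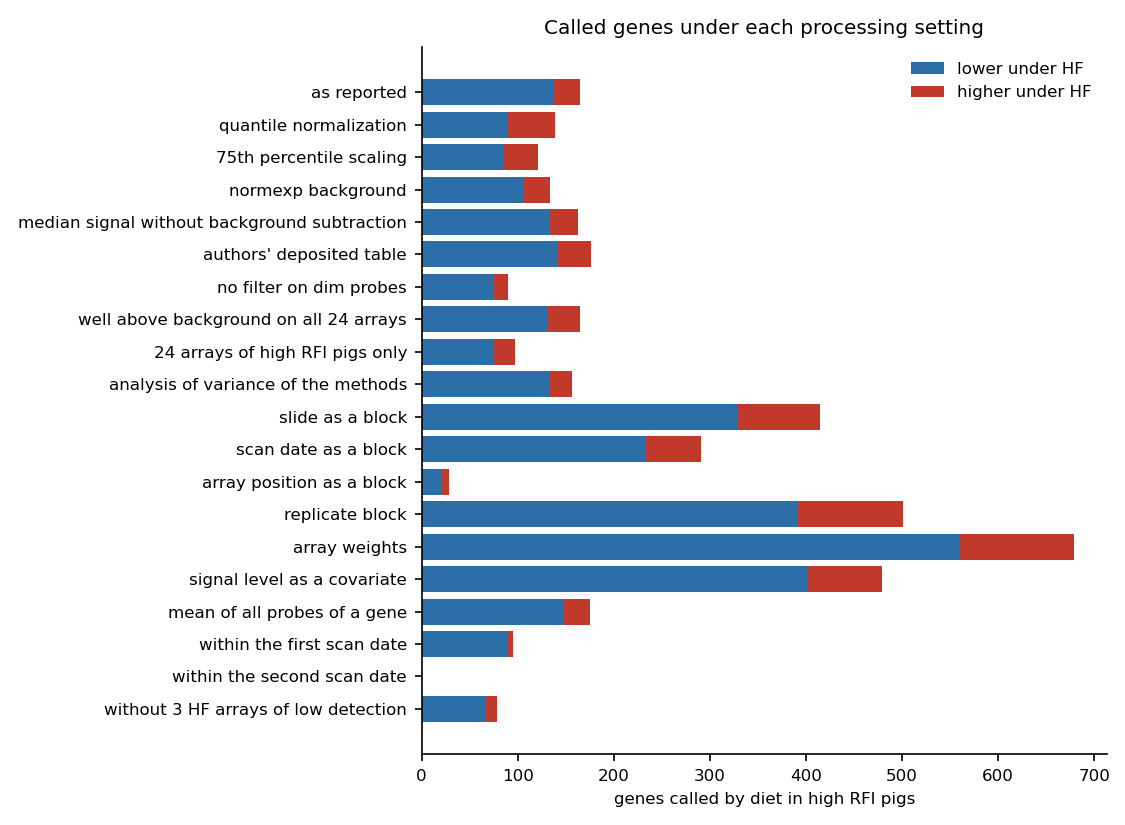
The number of genes called by diet in high RFI pigs is plotted for the analysis as reported and for 19 alternative settings, blue for lower and red for higher under HF. Counts range from 0 within the second scan date to 679 with array weights, and falls outnumber rises wherever genes were called.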

How the data were processed

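The authors labelled total RNA of each SCAT sample with Cy3, hybridized it to a custom 60-mer porcine array and quantified the scans with Agilent's Feature Extraction software. The deposited scanner files hold spot intensity on a linear scale, and the processed signal used here had its background subtracted there. A deposited log2 table of 38987 probes matched the log2 median signal minus the array median within 1e-08 and served as an alternative. The submitters' processing notes name R 2.10.0.

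Control spots (1319) and 227 spots marked as outliers were left out, and saturation was not seen on any spot. A probe was kept if at least 9 of the 12 arrays of a group had it well above background (44356 probes), and values were the log2 processed signal minus the array median. Probes were named through their accessions, gene numbers and gene names (27363 probes, 12895 symbols, some of them old), and the brightest kept probe on average stood for a gene. Probes were listed as unmapped on the array, so that no positions are given. A summed marker level adds the linear values of a list's probes.

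The 4 groups were fitted to all 48 arrays with limma 3.58.1 in R 4.3.3 (lmFit, eBayes with intensity trend, two-sided, Benjamini-Hochberg), after the two-way model of the study's methods and with its cut-offs. A missing spot left its array out of the fit of that probe. Permutation tests (SciPy 1.17.1) used 100000 resamples. The fit was tested on simulated data of 44356 probes for the diet contrast in high RFI pigs: it called 59 of 100 probes changed by 0.5 on the log2 scale, 89 of 100 changed by 1, and 17 of 44156 unchanged ones.

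Members, gene lists and tests were chosen with earlier results of these data known, and lists were described by counts and medians without a test. Genes were named by rule: the 12 largest called changes in each direction, up to 4 called members of each list or, where none was called, the member with the smallest p, the genes that the study followed or discussed, the smallest interaction p-values and the leading markers. A few genes that meet this rule entered every count but are not reported here. Other genes are marked as chosen after their values were seen. The alternatives covered scaling, background correction, the filter, the probe of a gene, batches, array quality and each high RFI array left out in turn.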

Additional observations from a re-analysis of the deposited data

How the results depend on the processing

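With other settings, the genes called by diet in high RFI pigs (165 in the report) numbered 90 without a filter on dim probes, 97 on the 24 high RFI arrays alone, 414 with slide, 291 with scan date and 28 with array position as a block, 679 with array weights and 479 with signal level as a covariate. The probes (737) numbered 378 without a filter, 1659 with slide, 1229 with scan date, 230 with array position, 2328 with array weights and 1882 with signal level. Chosen after seeing the data, the first scan date alone gave 95 genes and 241 probes, the second alone 0 genes and 0 probes (662 genes and 2890 probes at a raw p under 0.05), and the fit without HF replicates 2, 4 and 6 gave 78 genes and 426 probes. Leaving out 1 high RFI pig gave 78 to 331 genes and 330 to 1261 probes. Gene counts over 1.5 times away from 165 were 82, 78, 89 and 288 without HF replicates 7, 9, 11 and 12, and 103, 96, 86, 100, 108, 249 and 331 without LF replicates 3, 4, 6, 7, 8, 10 and 12. Such probe counts were 330, 401, 456 and 1261 without those 4 HF replicates, and 490, 457 and 1216 without LF replicates 2, 6 and 12. Of the 165 genes, 165 were still called with slide, scan date or replicate as a block, 163 with array weights, 111 with quantile normalization, 85 on the high RFI arrays alone, 26 with array position and 47 in the first scan date. The cause of these shifts was not tested.

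Replicate numbers followed the slides in every group, with 2 numbers per slide. HF and LF arrays with the same number correlated at -0.06 to 0.41, over 0.1 for 9 of 12 numbers. For 4 of the 12 HF arrays, the LF array of the same number correlated best. The labels do not tie a number to a shared litter, and the slide that a number shares was covered by the slide block. The numbers were therefore not taken as pairs. The replicate block gave 501 genes and 1906 probes in high RFI pigs and 665 genes in low RFI pigs, and 7 of the 29 lists with no call had one, among them the qPCR regulators (2), branched-chain amino acids (1) and adrenergic control (1).

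The genes called in low RFI pigs (273) numbered 162 with quantile normalization, 553 with slide, 413 with scan date and 0 with array position as a block, 1182 with array weights, 817 with signal level, 2 in the first scan date and 0 in the second, all in limma and chosen after seeing the data. At a raw p under 0.05 there were 1203 with array position and 1215 in the second date. The interaction was called for 0 probes in limma or the analysis of variance under the 17 alternatives that could give one. Of 779 list medians under the alternatives, 43 had another sign than the reported one, in 17 of 41 lists, none with a reported median over 0.21 in size. In the first and second scan date, interferon response had -0.29 and 0.10, T and NK cell markers 0.20 and -0.06, and lymphatic endothelial markers -0.15 and 0.52. Named genes that were called kept the call in 512 of 681 values and reversed in 0, on arrays that had given the call.

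Only uncalled genes changed sign. In the first scan date, GALNT1 had 0.071, GYS2 0.036, IGF1R 0.14, MEF2A -0.0035, NFE2L2 0.039, PROX1 -0.016 and SIRT1 0.070. In the second, PPARG had -0.069. Without the 3 HF arrays, GYS2 had 0.0091 and PPARG -0.0054. Quantile normalization gave GALNT1 0.0047, IGF1R 0.0063 and SIRT1 0.011, and the 75th percentile gave GYS2 0.0034, NFE2L2 0.00032 and SIRT1 0.0037. Array position gave GALNT1 0.043, array weights IGF1R 0.076, and signal level GYS2 0.073 and IGF1R 0.014. SIRT1 had 0.013 with normexp, 0.023 with the median signal, 0.026 in the deposited table and 0.10 with the mean of its probes, and PPARA had -0.066 with that mean.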
